A study of Mus musculus with 2 samples.

Results

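The SOXF genes Sox7, Sox17 and Sox18 and the ETS factor genes Ets1, Ets2, Erg, Fli1, Elk3, Elf1 and Etv6 encode transcription factors of the vascular endothelium. They are 10 of the 19505 gene symbols on the array, and each was read by 1 probe set, a group of probes to the same gene. They were taken by symbol, and the set was put together because Sox18 and Sox7 had been seen to be lower with blue light. All values of the light comparison below are therefore descriptions.

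The cells were mouse F2 cells, a vascular endothelial line that came from a UV-induced tumor of an animal of mixed BALB/c and C57BL/6 background. The group given blue light had hBACCS2, a fusion of a plant light sensor with STIM1 that opens the Ca2+ channel ORAI1 under light, and was exposed at 470 nm and about 0.4 mW/mm2 for 4 h, with 2 min of light and then an 18 min pause in each cycle. The group without blue light carried the same plasmid by its sample label, whereas the design text says that the control lacked hBACCS2 and the treatment text of the control is the same as that of the irradiated sample. The study, like the label, describes both array samples as cells transfected with hBACCS2. The values below compare the 2 labelled samples, and which description holds for the control was not tested. hBACCS2 was driven by the CAG promoter from a transiently transfected plasmid that only part of the cells took up, so each signal is an average over cells with and without it. With 1 array with blue light and 1 without, no difference has a replicate, no p-value can be given, and fewer cells of a kind cannot be told apart from less RNA per cell.

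SOX proteins bind DNA through an HMG box, which bends the helix, and the SOXF subgroup acts in arterial, venous and lymphatic endothelium, partly in place of one another. ETS proteins share the ETS domain, which reads a GGAA core, and most endothelial enhancers hold such cores. Erg and Fli1 keep endothelial identity genes on, Ets1 and Ets2 respond to MAP kinase phosphorylation, Elk3 is a ternary complex factor that partners serum response factor and mostly represses, and Etv6 is a repressor. Ca2+ reaches this family directly, since Ca2+/calmodulin-dependent kinase II phosphorylates Ets1 and lowers its DNA binding.

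Stretches of 120 bases before the transcription start are shown for members whose promoter letters could be read from RefSeq (GRCm38.p6), to let the ETS and SOX core letters be seen in the factors' own genes. Of the 10 members 5 matched the promoter table, with 8 start sites among them. The letters searched on both strands of the 250 bases before each start were CCGGAA for ETS factors, and also CAGGAA for the same family, AACAAT for SOX factors, and also ACAAAG for that family, TGANTCA for AP-1, and TGACG for the core of the CRE that CREB binds. No motif overlapped another in the windows shown. Capitals mark a match on either strand, and a match on the opposite strand appears in its complementary letters.
Elk3, chr10:93311160-93311279, minus strand: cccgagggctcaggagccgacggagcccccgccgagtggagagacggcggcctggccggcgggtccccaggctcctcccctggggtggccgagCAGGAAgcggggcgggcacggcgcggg
Erg, most 3′ of its starts, chr16:95459349-95459468, minus strand: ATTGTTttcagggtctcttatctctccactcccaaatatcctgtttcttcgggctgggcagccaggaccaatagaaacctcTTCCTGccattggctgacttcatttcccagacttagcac
Etv6, chr6:134035580-134035699, plus strand: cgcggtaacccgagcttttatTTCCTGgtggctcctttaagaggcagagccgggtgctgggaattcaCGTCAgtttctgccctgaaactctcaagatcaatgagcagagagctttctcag
Ets2, chr16:95702287-95702406, plus strand: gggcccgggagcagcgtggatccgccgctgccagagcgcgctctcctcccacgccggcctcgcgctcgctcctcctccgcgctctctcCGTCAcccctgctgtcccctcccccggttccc
Elf1, downstream start, chr14:79515554-79515673, plus strand: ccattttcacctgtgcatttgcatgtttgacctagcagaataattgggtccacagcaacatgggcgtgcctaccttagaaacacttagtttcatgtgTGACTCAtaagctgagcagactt

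The ETS letters CAGGAA stood 27 bases before the start of Elk3, 99 before that of Etv6 and 39 before the start of Erg shown. They occur in 25.7% of the 32851 promoter windows of the table, and the other ETS letters, CCGGAA, which occur in 12.0%, were in none of the 8. The SOX letters AACAAT, found in 9.42% of windows, were only in the Erg window shown, 120 bases before that start, and ACAAAG, found in 16.5%, was in none. Etv6 and Ets2 held the CRE core letters, which 17.8% of windows hold, and the downstream start of Elf1 held the AP-1 letters, which 6.75% hold. At the other start of Elf1 and the other starts of Erg, 3 windows in all, no match was present. Which start these cells use was not measured, and a match is a description of letters.

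**Figure D1:**
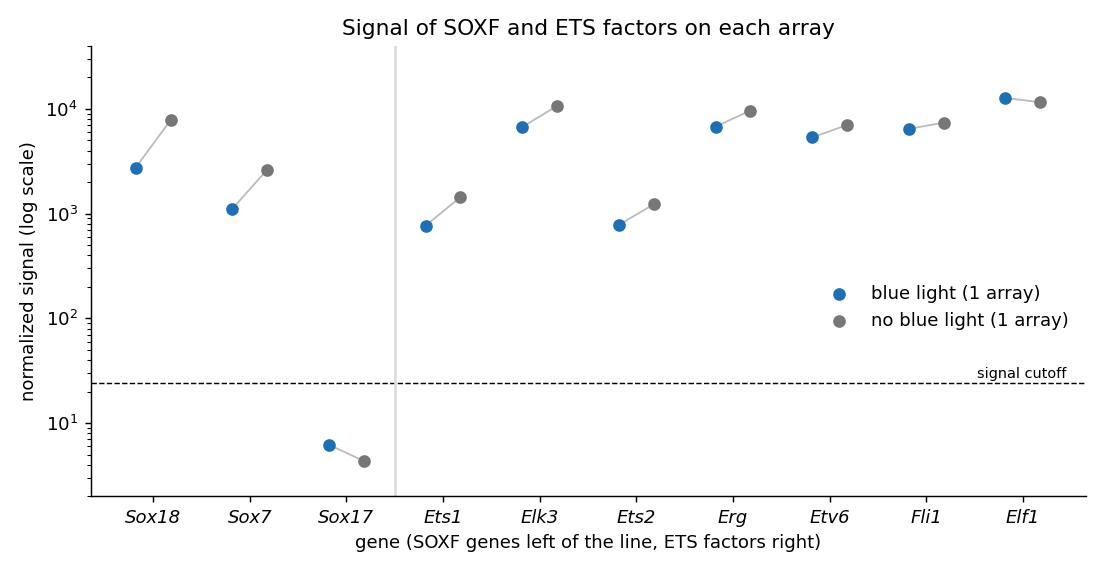
Normalized signal (log axis) of each gene on the array with blue light (left point, blue) and the array without it (right point, grey), 1 array each. The dashed line is the signal cutoff of 24. Sox18 and Sox7 have the steepest lines, at 2756 and 1114 with blue light against 7819 and 2631 without, Elf1 slopes the other way, and Sox17 lies under the cutoff on both arrays.

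Sox18 and Sox7 were the members with the lowest ratios of blue light to no blue light. A gene is called lower here at a ratio under 0.5, and higher above 2, with a signal over 24 on both arrays, cutoffs that the study's methods state. By this rule 2 of the 3 SOXF genes were called lower and 0 higher, and 1 could not be called. Over all 11695 gene probe sets past the signal cutoff 1.37% were called lower and 0.958% higher, and since the set was chosen for these falls nothing is read from the count.

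Sox18, which drives lymphatic and early vessel differentiation, had a signal of 2756 with blue light and 7819 without it. This is a ratio of 0.353, or a log2 difference of -1.50, a signal lower by 64.7%. All 500 probe sets nearest to it in mean signal had a higher log2 difference, the central 95% of them lying between -0.75 and 0.68. Sox18 had the 14th lowest difference of the 11695 probe sets.

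Sox7, which acts in early endothelial specification and in the adult vessel wall, had a signal of 1114 with blue light and 2631 without it. Its ratio was 0.423 and its log2 difference -1.24. Again all 500 probe sets of nearest signal were above it, with a central 95% from -0.81 to 0.64, and its rank from the lowest was 55. The median log2 difference of all probe sets over the cutoff was -0.01. The set was chosen for the falls of Sox18 and Sox7, so nothing is read from their ranks or from their places among neighbors.

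Sox17, the arterial member of the subgroup, was not measurable above background. Its signals were 6.2 with blue light and 4.3 without it, both under 24. Of the 5222 negative control probes 93.7% were brighter than Sox17 with blue light and 97.8% without it. Its difference is therefore not read as a change, and the SOXF values below rest on Sox18 and Sox7.

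**Figure D2:**
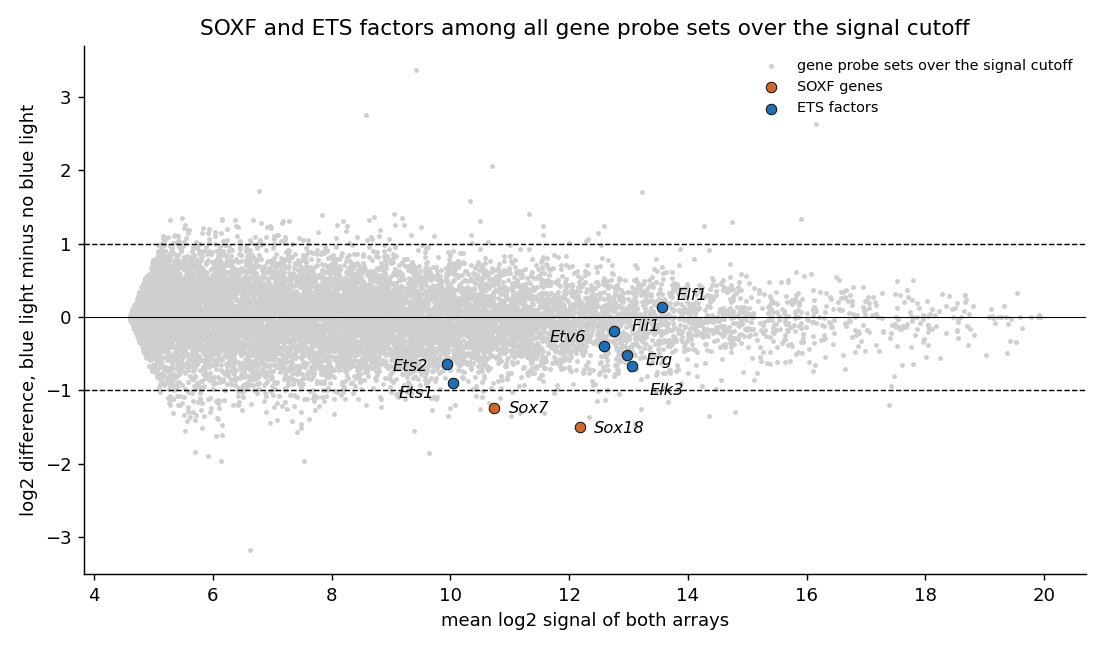
Log2 difference, blue light minus no blue light, against mean log2 signal for the 11695 gene probe sets over the signal cutoff (grey), with SOXF genes (orange) and ETS factors (blue) named. Dashed lines are ratios of 2 and 0.5. Sox18 and Sox7 lie under the lower line at -1.50 and -1.24, and the 7 ETS factors lie between -0.90 and 0.14.

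The ETS factors had smaller differences, mostly in the same direction. None of the 7 was called lower or higher, 6 had a log2 difference below 0 and 1 above it, and their median was -0.51. Below 0 lay 51.1% of all gene probe sets over the signal cutoff, and 1.37% were called lower and 0.958% higher. The 7 ETS genes were part of a set chosen with earlier values in view, so these counts are given as descriptions.

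Ets1, the founding member of the family and an effector of vessel growth signals, had the lowest difference of the 7. Its signal was 770.2 with blue light and 1437 without it, a ratio of 0.536 and a log2 difference of -0.90, just inside the fold cutoff. Only 4 of the 500 probe sets of nearest signal were lower, and the central 95% of them ended at -0.73. Its close relative Ets2 had a signal of 784.8 with blue light and 1225 without it, a log2 difference of -0.64. That value lay inside the central 95% of its neighbors in signal, which began at -0.75, with 25 of 500 lower.

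Elk3, the repressing ternary complex factor, had a signal of 6723 with blue light and 10706 without it, a log2 difference of -0.67. Of 500 probe sets of nearest signal 25 were lower, and the value was inside their central 95%, which began at -0.77. The same number of neighbors lay below Elk3 as below Ets2, so the 2 genes stood at like places among probe sets of their own signal.

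Erg and Fli1, paired relatives that sustain endothelial gene expression, differed in size. Erg had a signal of 6775 with blue light and 9662 without it, a ratio of 0.701 and a log2 difference of -0.51. Fli1 had a signal of 6462 with blue light and 7398 without it, a ratio of 0.873 and a log2 difference of -0.20. Among probe sets of nearest signal 54 of 500 lay below Erg and 172 of 500 below Fli1, so both values lay inside the central spread at this signal.

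Etv6, a repressor needed for vessel and blood cell maintenance, had a signal of 5350 with blue light and 7017 without it, a log2 difference of -0.39. Elf1, an activator of endothelial receptor genes such as Tek, was the only ETS member above 0. Its signal was 12742 with blue light and 11586 without it, a ratio of 1.10 and a log2 difference of 0.14, with 360 of 500 probe sets of nearest signal lower. The 9 members over the cutoff were all bright, with at most 2.6% of the negative control probes above any of them on either array.

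Set side by side, the SOXF genes over the signal cutoff had a median log2 difference of -1.37 (2 genes) and the ETS factors of -0.51 (7 genes), a difference of -0.86. These 2 SOXF genes, for whose falls the set was chosen, lay below all 7 ETS factors, so nothing is read from the separation. Sox17, under the signal cutoff, is left out of it. Sox7, the less changed of the SOXF pair, lay 0.34 log2 units below Ets1, the lowest ETS factor, while the ETS factors spread over 1.04 log2 units among themselves. With 1 array per condition and a set chosen for Sox18 and Sox7, no test of this difference was possible. As a yardstick for single probe sets, 18 genes had several probe sets over the cutoff, and the log2 differences within such a gene lay a median of 0.38 apart, with 90% of the gaps under 0.95. The distance between Sox7 and Ets1 is smaller than this median gap.

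**Figure D3:**
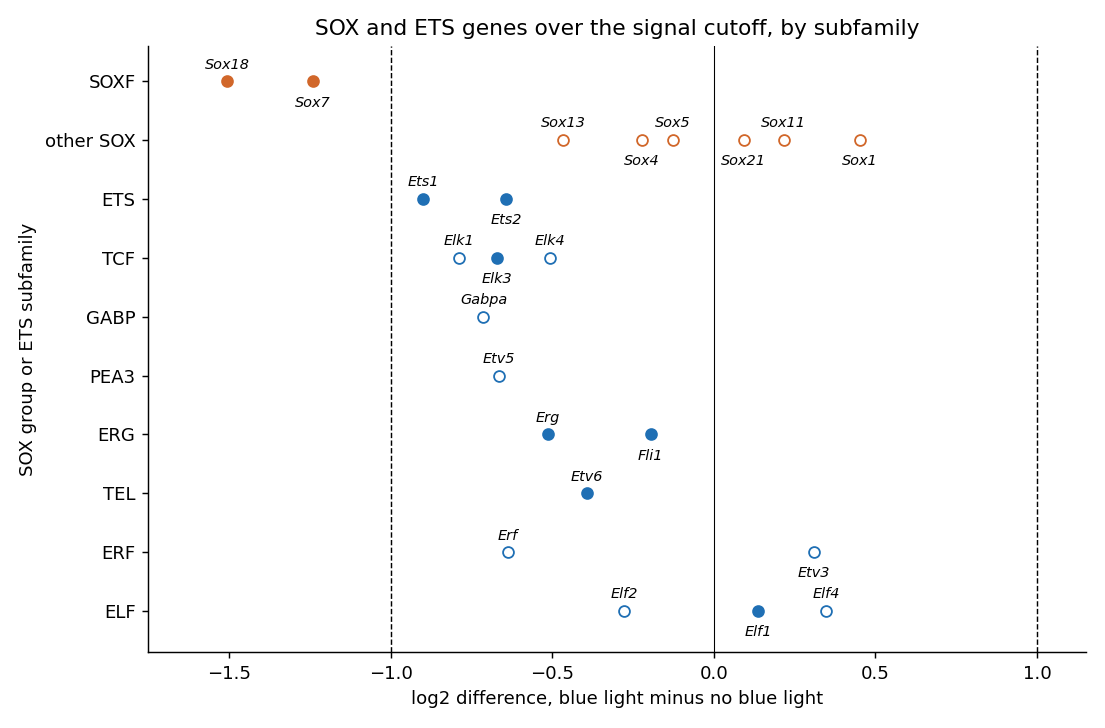
Log2 difference, blue light minus no blue light, of all SOX genes (orange) and ETS genes (blue) over the signal cutoff, in rows by SOX group and ETS subfamily. Filled points are the chosen genes, without Sox17, open points are other genes of the families, and dashed lines are ratios of 0.5 and 2. The other SOX genes spread from -0.47 to 0.45, and the ETS genes from -0.90 to 0.35.

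Other SOX genes lay on both sides of 0. Of 16 such genes with a probe set, 6 were over the signal cutoff, 0 were called in either direction, 3 had a difference below 0 and 3 above, and the median was -0.02. Among all probe sets over the cutoff 1.37% were called lower and 0.958% higher, and 51.1% were below 0. Sox13, a SOXD factor, had signals of 58.9 with blue light and 81.3 without it, the lowest difference of them at -0.47. Sox4, a SOXC factor, had signals of 706.2 with blue light and 824.0 without it, a difference of -0.22. Sox11, its relative, stood at 0.22, and Sox1, a neural SOXB factor, at 0.45 with signals of 231.7 with blue light and 169.4 without it. The signals of these genes other than Sox4 are lower than the 95th percentile of the negative controls, 324 with blue light and 333 without it, and the same holds for Elk1 and Etv5 below. With a signal over 100 required on both arrays the median of the other SOX genes was -0.13, and with no signal cutoff it was 0.11.

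Of 20 other ETS genes listed 18 had a probe set, 8 were over the signal cutoff, and 0 were called, while 6 of the 8 were below 0, as were 51.1% of all probe sets over the cutoff. Of those probe sets 1.37% were called lower and 0.958% higher. The median of the 8 ETS genes was -0.57, and over all 18 with no signal cutoff it was -0.16. At a fold cutoff of 1.5, which 8.47% of all probe sets passed downward and 7.55% upward, 4 of these 8 ETS genes were lower and 0 higher. The 4 were Elk1, Gabpa, Etv5 and Erf. Elk1, a ternary complex factor that activates immediate early genes, had signals of 82.2 with blue light and 141.9 without it, a difference of -0.79. Gabpa, the DNA-binding subunit of GABP and a regulator of mitochondrial and ribosomal genes, had signals of 608.1 with blue light and 996.3 without it, a difference of -0.71. Etv5, a PEA3 factor downstream of FGF receptors, stood at -0.66, and Erf, a repressor exported from the nucleus by ERK, at -0.64.

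Over the whole ETS family, 15 of 25 measured genes passed the signal cutoff, 12 of them with a difference below 0 and 3 above, at a median of -0.51. Over all probe sets 51.1% were below 0. At the 1.5-fold cutoff 7 of the 15 were lower and 0 higher, against 8.47% lower and 7.55% higher over all probe sets. Grouped by subfamily, a grouping made after the values were seen, all 3 ternary complex factors were below 0, with Elk1 at -0.79, Elk3 at -0.67 and Elk4 at -0.51. The ELF subfamily was divided, with Elf1 at 0.14, Elf2 at -0.28 and Elf4 at 0.35. The ERF subfamily was divided too, since Erf was at -0.64 and Etv3 at 0.31. Every ETS gene above 0 over the cutoff belonged to one of these 2 subfamilies.

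Among genes that SOXF factors are known to bind or activate, 1 of 12 was called lower and 0 higher, with 8 within the cutoff and 3 under the signal cutoff, where 1.37% of all probe sets were called lower and 0.958% higher. The called gene was Dll4, the Notch ligand of arterial and tip cells, whose enhancers hold SOXF and ETS sites. Its signal was 114.3 with blue light and 239.4 without it, a log2 difference of -1.07. Both signals were under the 95th percentile of the negative controls, 324 with blue light and 333 without it. With 24 added to both signals the difference was -0.93 and the call was lost. Efnb2, an arterial ephrin, had signals of 1605 with blue light and 2717 without it, a difference of -0.76. Kdr, the main VEGF receptor, had signals of 57981 with blue light and 90957 without it, a difference of -0.65. Notch1 stood at -0.46, with signals of 38.3 with blue light and 52.8 without it. The negative control medians beside these were 26.5 with blue light and 26.2 without it. The median of the 9 genes over the cutoff was -0.29.

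Among known ETS targets, of which 6 are also on the SOXF target list, 20 of 23 had a probe set and 19 were over the signal cutoff. Called lower was again Dll4 alone, and 0 were higher, with 14 below 0 and 5 above and a median of -0.26. Among all probe sets over the cutoff 1.37% were called lower and 0.958% higher. Flt1, the VEGF decoy receptor, had signals of 220.2 with blue light and 402.7 without it, a difference of -0.87. With blue light its signal was under the 95th percentile of the negative controls, 324 on that array. Nos3, which makes nitric oxide, stood at -0.68, and Mef2c, a MADS factor that ETS proteins switch on in endothelium, at -0.66. The 1.5-fold cutoff was passed downward by 6 of the 19 and upward by 0, against 8.47% and 7.55% of all probe sets, of which 51.1% were below 0. The medians of both target lists lay above those of the SOXF genes and of the ETS factors, as the plot of lists shows. Since the set was chosen for the falls of Sox18 and Sox7, nothing is read from this order.

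**Figure D4:**
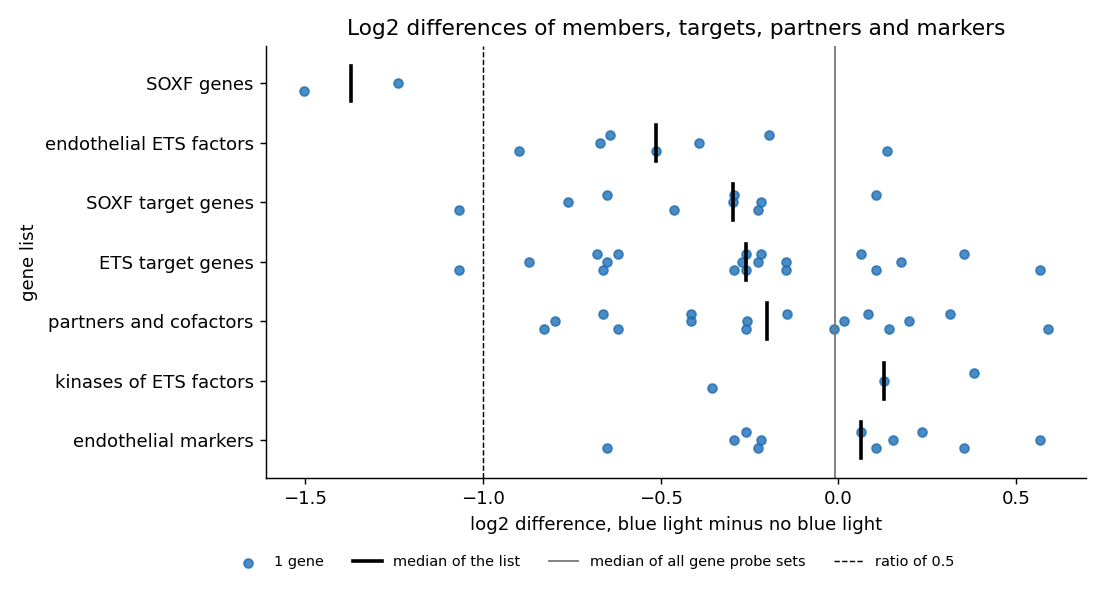
Log2 difference, blue light minus no blue light, of each gene over the signal cutoff in 7 lists (points, spread vertically only for legibility), with the median of each list (black bar), the median of all gene probe sets (grey line, -0.01) and a ratio of 0.5 (dashed). Medians run from -1.37 for SOXF genes and -0.51 for ETS factors to 0.06 for endothelial markers and 0.13 for kinases of ETS factors. Some genes are on several lists.

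Partners and cofactors of these factors had 0 of 17 measured genes called in either direction. Among all probe sets over the cutoff 1.37% were called lower and 0.958% higher, so nothing is read from this count. Daxx, a corepressor that binds Ets1, had signals of 94.3 with blue light and 167.5 without it, a difference of -0.83. The forkhead factor gene Foxc1, whose product acts with ETS proteins on endothelial enhancers, stood at -0.80, Mef2c, a partner of Sox18, at -0.66 and Lmo2, the adaptor of the Tal1 and Gata2 complex, at -0.62. On both arrays Daxx, Foxc1 and Lmo2 were under the 95th percentile of the negative controls, 324 with blue light and 333 without it. Of the 16 over the cutoff 10 were below 0 and 6 above, the highest at 0.59. Among all probe sets over the cutoff 51.1% were below 0. The median of the 16 was -0.20, or 0.00 with a signal over 100 required on both arrays. Of the kinases that modify ETS factors 5 of 7 had a probe set and 3 were over the cutoff, with 0 called. Camk2d, which encodes a Ca2+/calmodulin-dependent kinase II chain, had a signal of 29715 with blue light and 22826 without it, a difference of 0.38, while Camk2g stood at -0.36 and Mapk14 at 0.13.

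Of 12 endothelial markers 11 were over the signal cutoff on both arrays, as were 52.7% of all gene probe sets, with Cldn5 under it at 5.0 with blue light and 4.5 without it. The marker list is not separate from the target lists, since 10 markers are also ETS targets and 5 also SOXF targets. Vwf, at 41.3 with blue light and 27.8 without it, stood beside negative control medians of 26.5 with blue light and 26.2 without it. Cdh5, the VE-cadherin gene, had signals of 231925 with blue light and 284467 without it. Of the 11 markers 0 were called, 5 were below 0 and 6 above, and their median was 0.06, or -0.08 with a signal over 100 required on both arrays. Among all probe sets over the cutoff 1.37% were called lower and 0.958% higher, and 51.1% were below 0. Summed over the 12 markers the signal was 424111 with blue light and 500692 without it. This gap lies mainly in Cdh5 and in Kdr, the latter at 57981 with blue light and 90957 without it. Smooth muscle and pericyte markers summed to 228 with blue light and 209 without it over 8 genes. Of these Acta2, at 92.1 with blue light and 81.4 without it, and Pdgfrb, at 25.8 with blue light and 37.3 without it, were over the cutoff on both arrays, and the defining smooth muscle genes Myh11 and Cnn1 were under it on both. Fibroblast markers summed to 62.3 with blue light and 80.6 without it over 4 genes, with Col1a1 alone over the cutoff on both arrays, at 25.4 with blue light and 40.0 without it, a difference of -0.65. Leukocyte and macrophage markers summed to 32.5 with blue light and 37.0 without it over 3 genes, none of them over the cutoff. Epithelial markers summed to 70.5 with blue light and 55.0 without it over 4 genes, with Krt8 alone over the cutoff on both arrays, at 41.9 with blue light and 25.5 without it, a difference of 0.71. No marker list had a gene called, and their part in the differences of the SOX and ETS genes was not tested.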

How the data were processed

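RNA of F2 cells with and without blue light was hybridized to Clariom S mouse arrays, 1 for each condition. The sample labels and the study describe both as transfected with hBACCS2. The log2 values were deposited by the authors after normalization in Filgen's Microarray Data Analysis Tool (version 3.2). The manner of normalization and of any background correction was not given in the sources used here. Of 28846 rows, 22206 are gene probe sets, of which 19572 have 1 gene symbol in the platform annotation, 0 several and 2634 none. The 6640 control rows were kept only for background. Gene probe sets had a median signal of 32.4 with blue light and 31.4 without, and negative controls 26.5 with and 26.2 without. Precision is limited by 1 array per condition.

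Differences are log2 signal with blue light minus without, on the values as deposited. A gene was called past a ratio of 2 or 0.5 with both signals over 24. Each member was set beside the 500 probe sets closest in mean log2 signal, as a description. Members and lists were chosen with earlier results of these data known. Named were all members, and of other lists the called genes and up to 4 with the largest absolute difference. Elk4, Elf2, Elf4, Etv3, Cdh5, Cldn5, Myh11 and Cnn1 were named after their values were seen. Alternatives were median, quantile and loess scaling (span 0.3), 24 added to both signals, other signal and fold cutoffs, and means per gene. The code behind the calls was tested on simulated data with known shifts, which says nothing of the error between arrays. Python 3.11.15, numpy 2.4.6, pandas 2.3.3 and statsmodels 0.14.6 were used.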

Additional observations from a re-analysis of the deposited data

How the results depend on the processing

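Sox18 and Sox7 stayed called lower under all 8 alternatives, with log2 differences from -1.55 to -1.45 and from -1.28 to -1.19. The 1.5-fold cutoff, the changed signal cutoffs and the means per gene could not remove these calls. Both genes are bright, and each has 1 probe set. The number of members below 0 was 8 under each alternative that gives it. With no signal cutoff, which lets in Sox17 at signals under that cutoff on both arrays, the SOXF median was -1.24 and its difference from the ETS median -0.73. At a fold cutoff of 1.5, Ets1, Elk3 and Ets2 were called lower, so that 3 of the 7 ETS factors passed. In the other lists 16 genes passed it in place of 1, with Krt8 and Runx1 called higher and the rest lower. For comparison, the 11695 probe sets tested passed it downward in 8.47% of cases and upward in 7.55%. With 24 added to both signals Dll4 lost its call, leaving 0 called in these other lists. Over all gene probe sets, 160 lower and 112 higher became 74 and 51 with 24 added, 388 and 407 with no signal cutoff, 76 and 51 with a signal over 100 on both arrays, and 990 and 883 at the 1.5-fold cutoff. The medians of other ETS genes and other SOX genes with no signal cutoff were -0.16 and 0.11. No paired analysis was possible because each condition has 1 array. Dim genes are limited by the overlap with negative controls, whose 95th percentile was 324 with blue light and 333 without.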
